A study of Bos taurus with 8 samples.

Results

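Translation factors are the proteins that load the ribosome onto an mRNA, move it along and release it. Here their transcripts were followed in bovine embryos edited in RPL12. The set held the 59 genes, of 16606 in the deposited table, whose symbols begin with EIF1 to EIF6, EEF1 or EEF2, together with ETF1, GSPT1 and PABPC1. The EIF2 kinases (EIF2AK genes), EIF4E1B and EIF4ENIF1 were left out by the same rule. A mean of at least 1 CPM (reads per 1000000 reads) over the 8 libraries was reached by 58 of the 59, which were tested among 12129 genes in all. The member below that mean was EEF1D, an exchange factor subunit, at 0 to 0.348 CPM in each library. By role, 9 of 68 symbols that were looked up, such as EIF3C and EEF1A2, were not analysed here.

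The embryos came from oocytes of slaughtered cattle, matured in culture and fertilised with frozen Holstein semen. Edited embryos received PEmax, a prime editor (a Cas9 nickase joined to a reverse transcriptase), and its guide RNA as zygotes, by injection into the cytoplasm. Controls and edited embryos were taken when they had 4 or 8 cells, with 5 embryos pooled for each library and 2 libraries in each of the 4 groups. The labels call the edit A148G, give no reference for that position, and speak of base editing in the titles although the protocol describes prime editing. Nothing in the labels gives the share of edited alleles, says whether controls were injected, or says whether cumulus cells were removed. For 4-cell samples the labels name oocytes as the source but embryos in the title, and the title was followed. Nothing says that the 2 libraries of a group came from separate cultures, so p-values measure only the spread between these libraries, which may be technical.

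Initiation begins when EIF2, carrying the initiator tRNA, joins the small ribosomal subunit together with EIF1, EIF1A, EIF3 and EIF5, while EIF4F (EIF4E, EIF4G and the helicase EIF4A) brings in the capped mRNA. EIF5B then joins the large subunit, EEF1A delivers each aminoacyl-tRNA, EEF2 moves the ribosome by a codon, and ETF1 with GSPT1 ends the chain. RPL12 lies at the base of the stalk of the large subunit, where the GTPases of elongation bind. In cleaving embryos much of the mRNA is maternal, was stored during oocyte growth and is lost or translated on a schedule before the embryo's own genome takes over.

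Libraries held 33527531 to 35122409 reads, with 14763 to 15438 genes detected. All 12 oocyte markers looked up were present, the lowest at 32.5 CPM, at levels that differed between groups. RPL12 stood at 159 and 174 CPM in the 4-cell controls and at 27.5 and 33.6 CPM in the edited 4-cell embryos. In 8-cell embryos it was 96.3 and 97.6 CPM in controls and 14.1 and 11.9 CPM in edited embryos. RPL12 was thus lower in the edited libraries of each stage, although a gene level does not read the edit itself.

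Markers of the cells that surround the oocyte differed between the groups as well. Summed over 22 cumulus and granulosa markers, the level was 2385 and 1937 CPM in 4-cell controls and 520.5 and 598 CPM in edited 4-cell embryos. In 8-cell embryos the sums were 827 and 1212 CPM in controls and 507 and 476 CPM in edited embryos. The 4-cell controls were the highest of the 4 groups, and no control library fell to the level of an edited one. Of 18 of these markers tested, 13 were lower and 2 higher in edited 4-cell embryos, and 5 were lower and 0 higher at the 8-cell stage. Of all genes tested, 25.8% were called lower and 18.9% higher at the 4-cell stage, and 14.5% and 1.08% at the 8-cell stage. CYP11A1, the first enzyme of steroid synthesis, stood at 227 and 201 CPM in 4-cell controls against 3.33 and 14.5 CPM in edited embryos, and LHCGR had at most 2 reads in any library. The 2 markers called higher were HAS2 and GREM1, which belong to the expanding cumulus. VCAN, of the same process, went from 93.5 and 113 CPM in 4-cell controls to 32.3 and 43.6 CPM in edited embryos, TNFAIP6 from 1.19 and 2.67 CPM to 0 and 0.205 CPM, and PTX3 was at 1.42 and 6.54 CPM against 1.04 and 5.79 CPM. STAR was between 126 and 213 CPM in every library. CYP19A1 was at 0.898 and 1.82 CPM in 4-cell controls and 1.65 and 2.25 CPM in edited embryos. FOXL2 and NR5A1 reached at most 0.464 and 0.434 CPM in any library. Much of the sum came from VIM and SERPINE2, at 582 and 691 CPM in 4-cell control replicate 1. Summed over the 12 oocyte markers, the level was 19570 and 26010 CPM in 4-cell controls and 49080 and 57660 CPM in edited 4-cell embryos. It was 49980 and 37250 CPM in 8-cell controls and 52330 and 55570 CPM in edited 8-cell embryos. Edited libraries were thus the higher ones at each stage, with 6 of the 12 markers called higher and 1 lower at the 4-cell stage and 2 higher and 0 lower at the 8-cell stage, where all 12 had log2 fold changes above 0. Summed leukocyte markers were low, at 11.4 and 12.4 CPM in edited 8-cell embryos and 4.50 to 6.42 CPM in the other groups. Of 2 tested, 1 was called lower in edited 4-cell embryos and 1 higher in edited 8-cell embryos. The haemoglobin gene HBA reached at most 0.330 CPM. In such pools, fewer cells of a type and less RNA per cell cannot be told apart.

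**Figure D1:**
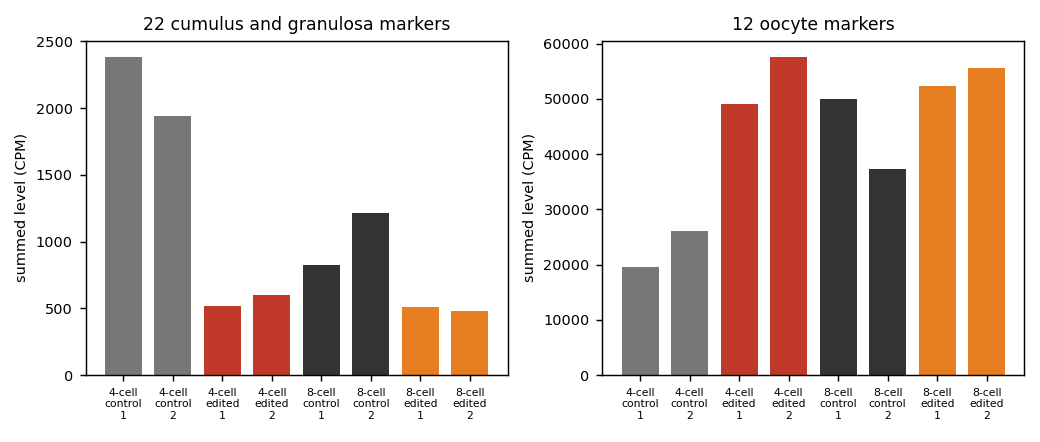
Summed level in CPM (vertical axes) of 22 cumulus and granulosa markers (left) and 12 oocyte markers (right), with 1 bar per library. The cumulus and granulosa sum is 1937 CPM or more in both 4-cell controls and at most 598 CPM in the 4 edited libraries.

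Taken over all members, the transcripts of translation factors made up 1.37% to 1.65% of the reads, and no group stood apart by this share. Which factors made up that share did differ. The median level of a member, as log2(CPM + 1), was 6.83 and 6.82 in 4-cell controls, 6.13 and 5.75 in edited 4-cell embryos, 6.42 and 6.48 in 8-cell controls and 6.06 and 6.01 in edited 8-cell embryos. Each edited library was therefore below both controls of its stage. Group effects were tested with limma on log2(CPM + 1), adjusted over all 12129 genes by the Benjamini-Hochberg method and called at an adjusted p-value under 0.05; fold changes on this scale understate those of low genes.

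In edited 4-cell embryos, 25 of 58 members were called lower, which is 43.1% against 25.8% of all genes tested, and 5 were called higher, which is 8.62% against 18.9%. The median log2 fold change was -0.47 over the members and -0.02 over all genes. At the 8-cell stage 11 of 58 members were called lower, which is 19% against 14.5% of all genes. None was called higher by limma, edgeR or DESeq2. Limma called 1.08% of all genes higher, a share so low that none among 58 members does not set them apart. At an unadjusted limma p-value under 0.05, 0 members were higher at the 8-cell stage, against 733 of 12129 genes. The median there was -0.23 over the members and 0.00 over all genes. The median describes the list and is no test of it. These shares of all genes are also the background for the counts by role below. Groups without overlap were common in the whole set. Of 12129 genes, edited 4-cell libraries lay below both controls for 4543 and above both for 4065. At the 8-cell stage these counts were 3970 and 3361. Among the 58 members they were 32 and 9 at the 4-cell stage and 33 and 9 at the 8-cell stage. Groups that do not overlap are thus no sign of a difference by themselves.

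The 10 members called lower at both stages were EEF1B2, EEF1G, EIF1AX, EIF2B2, EIF2B5, EIF2S2, EIF3F, EIF4EBP1, EIF6 and ETF1. They were 40% of the members called lower at the 4-cell stage and 90.9% of those called lower at the 8-cell stage. Over all genes these shares were 48.2% and 85.6%. EIF3J was the 1 member called lower at the 8-cell stage alone, and 27 members were called at neither stage.

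A model with a term for the marker levels above was also fitted. With the mean log2 level of the 22 cumulus and granulosa markers added to the model, 0 members were called in either editing comparison by limma. At an unadjusted p-value under 0.05 this model gave 2 members higher and 10 lower at the 4-cell stage, and 0 higher and 3 lower at the 8-cell stage. Over all 12129 genes the same model called 1 gene at the 4-cell stage and 2 at the 8-cell stage. With this term the errors grew, the median over all members hardly moved and the median size over the called members became smaller. A lost call can come from a larger error, a smaller difference or both. The members' median log2 fold change was -0.47 with and without it at the 4-cell stage, and -0.24 with it against -0.23 without it at the 8-cell stage. The median standard error of a member went from 0.27 to 0.708 at the 4-cell stage and from 0.27 to 0.568 at the 8-cell stage. Over the members called without the term, the median size of the log2 fold change went from 1.33 to 1.07 (30 members, 4-cell) and from 1.17 to 0.93 (11 members, 8-cell), and each kept its sign. Single members moved unevenly: EIF2B2 was -2.46 with the term against -2.89 at the 4-cell stage, EIF6 -1.55 against -3.05, and EIF4E 0.10 against 0.82. At the 8-cell stage EIF3J was -1.58 against -1.11 and EIF3F -0.04 against -1.17. Within 1 group, 8-cell control replicate 2 held more of these markers than replicate 1. Of the 25 members called lower in edited 4-cell embryos, 20 (80%) were also higher in that replicate 2 than in replicate 1, as were 81.7% of all genes called lower. The 4-cell controls had more markers in replicate 1 by sum, though not by mean log2 level (4.06 and 4.11). There 7 of the 25 (28%) were higher in replicate 2, against 27.5% of all such genes. These controls also entered the calls. In edited 4-cell embryos, with more markers in replicate 2, 13 of the 25 (52%) were higher there, against 52.4% of all such genes. In edited 8-cell embryos, with fewer in replicate 2, 10 (40%) were, against 45.4% of all such genes. Of members not called at the 4-cell stage, 67.9% were higher in replicate 2 of the 4-cell controls, against 54.6% of all genes not called. In the 8-cell controls these shares were 46.4% and 58.8%. Members of 1 library pair are not separate replicates. Between edited and control embryos, the oocyte marker sums moved in the opposite direction to the cumulus and granulosa sums. The part of either in the differences was not tested beyond these values.

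**Figure D2:**
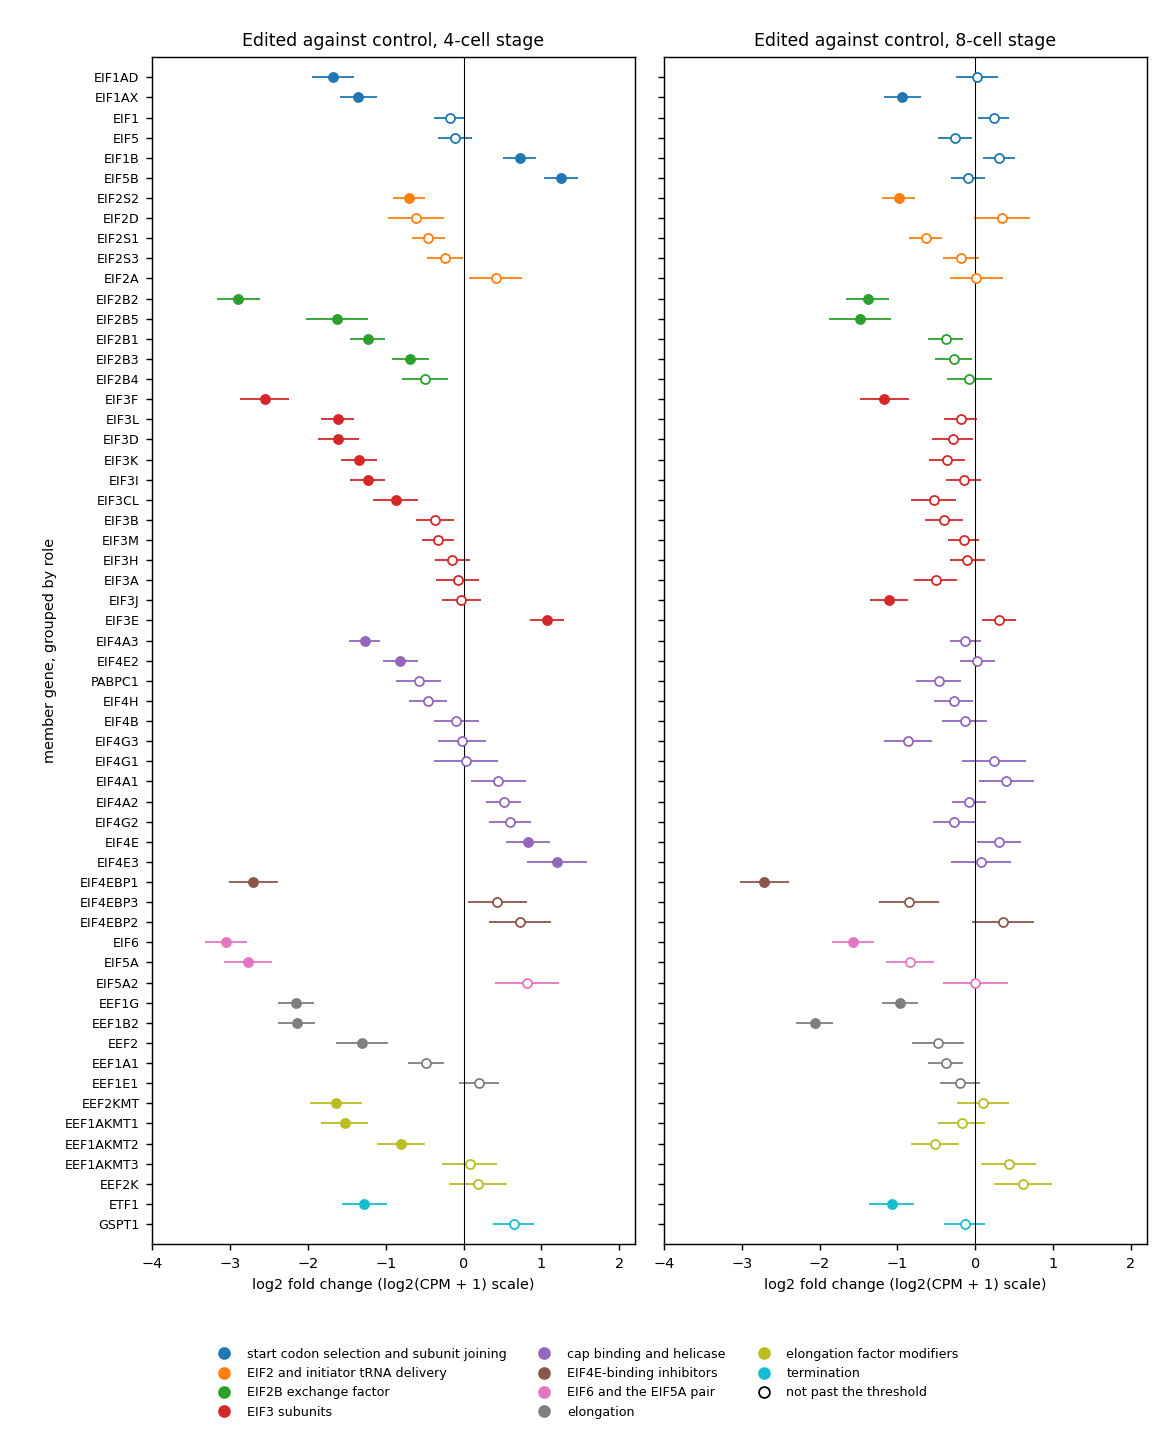
Log2 fold change of edited against control embryos (horizontal axes, log2(CPM + 1) scale) for the 58 tested members (vertical axis, grouped and coloured by role) at the 4-cell (left) and 8-cell stage (right). Points are limma estimates from 2 libraries a group, bars 1 standard error, filled points an adjusted p-value under 0.05: 25 members are called lower and 5 higher on the left, 11 lower and 0 higher on the right.

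The list of start codon selection and subunit joining, which also held the EIF1A-like EIF1AD, was split. Of 6 members, 2 rose (EIF5B and EIF1B) and 2 fell (EIF1AX and EIF1AD) in edited 4-cell embryos, and 1 fell (EIF1AX) at the 8-cell stage. EIF1AX, which steadies the scanning small subunit, was at 434 and 294 CPM in 4-cell controls and 138 and 141 CPM in edited 4-cell embryos. Later, in 8-cell embryos, it was at 214 and 282 CPM in controls and 121 and 134 CPM in edited embryos. Edited libraries were below controls at each stage without overlap. Its log2 fold change was -1.35 (SE 0.237, limma adjusted p-value 0.000279) at the 4-cell stage and -0.94 (SE 0.237, limma adjusted p-value 0.0108) at the 8-cell stage. The 8-cell call was lost without any 1 of 8-cell control replicate 2, edited replicate 1 or edited replicate 2, with limma adjusted p-values of 0.152, 0.107 and 0.0507 (range over all alternatives but the marker term 0.00267 to 0.152).

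EIF5B, the GTPase that joins the subunits, went the other way. It stood at 719 and 789 CPM in 4-cell controls and at 1918 and 1686 CPM in edited 4-cell embryos, and at 1544 and 1338 CPM in 8-cell controls and 1161 and 1560 CPM in edited 8-cell embryos. Only the 4-cell controls were low, and at the 8-cell stage the groups overlapped. Its log2 fold change was 1.25 (SE 0.217, limma adjusted p-value 0.000253) at the 4-cell stage and -0.09 (SE 0.217, limma adjusted p-value 0.821) at the 8-cell stage. EIF1B, a close relative of the start codon gatekeeper EIF1, was at 334 and 310.5 CPM in 4-cell controls and 477 and 593 CPM in edited ones, which is 0.72 on the log2 scale (SE 0.208, limma adjusted p-value 0.0102). This call was lost without 4-cell edited replicate 2 (limma adjusted p-value 0.0835, range over all alternatives but the marker term 0.00911 to 0.0835). Reads of EIF1 and EIF1B may be split between the copies, and EIF1 itself was not called at either stage, at 1210 to 1746 CPM over the libraries.

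EIF1AD, which carries an EIF1A-like domain, was at 72.0 and 70.2 CPM in 4-cell controls and 20.1 and 23.0 CPM in edited embryos. At the 8-cell stage the controls were at 33.6 and 53.4 CPM and the edited embryos, between them, at 44.1 and 41.9 CPM. The groups were apart at the 4-cell stage and overlapped at the 8-cell stage, with log2 fold changes of -1.68 (SE 0.273, limma adjusted p-value 0.00015) and 0.02 (SE 0.273, limma adjusted p-value 0.972). EIF5, the GTPase-activating partner of EIF2, was called at neither stage and ranged from 907 to 1303 CPM.

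Among the 5 genes of initiator tRNA delivery, 1 fell at each stage and none rose. That gene was EIF2S2, the beta subunit of EIF2, at 438 and 394 CPM in 4-cell controls, 228 and 285 CPM in edited 4-cell embryos, 332 and 311 CPM in 8-cell controls and 165 and 158 CPM in edited 8-cell embryos. Both edited groups were below both control groups. On the log2 scale the change was -0.70 (SE 0.208, limma adjusted p-value 0.0121) at the 4-cell and -0.98 (SE 0.208, limma adjusted p-value 0.00317) at the 8-cell stage. The 4-cell call was lost without control replicate 1 or edited replicate 1 (limma adjusted p-values 0.0521 and 0.0966), in edgeR (0.0873) and with TMM factors, 4 of 18 alternatives but the marker term, over a range of 0.0107 to 0.0966. EIF2S1, the alpha subunit that the stress kinases phosphorylate, was at 378 and 314 CPM in 4-cell controls, 228 and 277 CPM in edited 4-cell embryos, 294 and 282 CPM in 8-cell controls and 189 and 180.4 CPM in edited 8-cell embryos. Edited libraries were again the lower ones at each stage, but the differences did not pass, at -0.45 (SE 0.21, limma adjusted p-value 0.092) and -0.64 (SE 0.21, limma adjusted p-value 0.0506). The 4-cell difference passed without control replicate 2 (-0.59, limma adjusted p-value 0.0499). The 8-cell difference passed without either 4-cell control, with only the compared libraries fitted and with a minimum mean of 5 CPM (limma adjusted p-values 0.0259, 0.026, 0.0209 and 0.0452). EIF2S3, EIF2A and EIF2D, the last 2 of which act in initiation outside the usual route, were called at neither stage.

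EIF2B, the exchange factor that recharges EIF2 with GTP, showed lower transcripts for most subunits. At the 4-cell stage 4 of its 5 genes fell and at the 8-cell stage 2 fell, with medians of -1.23 and -0.38. EIF2B2, the beta subunit, stood at 99.2 and 84.3 CPM in 4-cell controls and 10.5 and 12.5 CPM in edited 4-cell embryos. It stood at 29.8 and 36.3 CPM in 8-cell controls and at 11.4 and 12.6 CPM in edited 8-cell embryos. The edited libraries of the 2 stages were alike, and the controls of the 2 stages were not. The log2 fold change was -2.89 (SE 0.28, limma adjusted p-value 1.62e-06) at the 4-cell and -1.38 (SE 0.28, limma adjusted p-value 0.00226) at the 8-cell stage, and none of the 8 libraries left out in turn ended either call.

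EIF2B1, the alpha subunit, fell from 121 and 119 CPM to 51.6 and 49.6 CPM at the 4-cell stage, which is -1.23 on the log2 scale (SE 0.224, limma adjusted p-value 0.000389). At the 8-cell stage it was 87.5 and 80.6 CPM in controls and 66.6 and 61.9 CPM in edited embryos, which are apart but did not pass (limma adjusted p-value 0.297). EIF2B3, the gamma subunit, was at 97.5 and 96.5 CPM in 4-cell controls and 67.1 and 53.6 CPM in edited ones, which is -0.68 on the log2 scale (SE 0.239, limma adjusted p-value 0.0287). Its call was lost in 6 of 18 alternatives: in edgeR (0.0727), with TMM factors, with only the compared libraries fitted, and without either 4-cell control or without 4-cell edited replicate 2 (0.0749, 0.0544 and 0.15), over a range of 0.0252 to 0.15. EIF2B5, which catalyses the exchange, was called lower at both stages at a low level of 2.86 to 19.1 CPM. Those calls were lost without 4-cell control replicate 2 (limma adjusted p-value 0.0576, range 0.000693 to 0.0576) and, for the 8-cell stage, without either 8-cell control, without edited replicate 2 or without a filter on low values (up to 0.128, range 0.00426 to 0.128). EIF2B4, the delta subunit, was called at neither stage.

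EIF3, the scaffold of the small subunit, was uneven. Of 12 genes measured, 6 fell and 1 rose at the 4-cell stage and 2 fell at the 8-cell stage. EIF3F was at 88.0 and 72.6 CPM in 4-cell controls and 12.6 and 12.9 CPM in edited 4-cell embryos, then at 25.7 and 46.4 CPM in 8-cell controls and 17.6 and 12.5 CPM in edited 8-cell embryos. Edited libraries were below controls at each stage. The log2 fold changes were -2.56 (SE 0.318, limma adjusted p-value 1.42e-05) and -1.17 (SE 0.318, limma adjusted p-value 0.0177). The 8-cell call was lost without a filter on low values and without control replicate 2 or edited replicate 2 (limma adjusted p-values 0.294 and 0.182 for the last 2, range over all alternatives but the marker term 0.00302 to 0.294).

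EIF3L stood at 859 and 1017 CPM in 4-cell controls and 305 and 303 CPM in edited 4-cell embryos. In 8-cell embryos it stood at 792 and 811 CPM in controls and 605 and 821 CPM in edited embryos. The edited 4-cell libraries were the low ones, and the remaining 6 lay between 605 and 1017 CPM. The log2 fold change was -1.62 (SE 0.213, limma adjusted p-value 2.42e-05) at the 4-cell stage and -0.19 (SE 0.213, limma adjusted p-value 0.622) at the 8-cell stage. EIF3K, which pairs with EIF3L at the rim of the complex, was at 215 and 186 CPM in 4-cell controls and 84.4 and 72.6 CPM in edited ones, which is -1.34 on the log2 scale (SE 0.235, limma adjusted p-value 0.000279). EIF3D, a subunit that can itself bind the cap, was at 97.7 and 124 CPM in 4-cell controls and 44.3 and 28.2 CPM in edited ones, which is -1.61 on the log2 scale (SE 0.264, limma adjusted p-value 0.000163). Neither EIF3K nor EIF3D passed at the 8-cell stage (limma adjusted p-values 0.35 and 0.529).

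EIF3I and EIF3CL were the other 2 EIF3 genes called lower at the 4-cell stage. EIF3C itself was not analysed here, and whether reads of EIF3CL are shared with another copy was not examined. Its call was lost without 4-cell control replicate 1 or edited replicate 2 (log2 fold changes -0.83 and -0.42). It was also lost in edgeR (adjusted p-value 0.0619) and without a filter on low values (limma adjusted p-value 0.0616). EIF3E, named here after its values were seen because it was the 1 EIF3 gene that rose, was at 568 and 809 CPM in 4-cell controls and 1323 and 1539 CPM in edited 4-cell embryos. All 4-cell edited values lay above the controls, by 1.07 on the log2 scale (SE 0.221, limma adjusted p-value 0.00103), with 0.30 (limma adjusted p-value 0.422) at the 8-cell stage. EIF3J, the loosely held subunit that helps the complex onto the small subunit, was at 80.8 and 83.8 CPM in 4-cell controls, 86.2 and 75.6 CPM in edited 4-cell embryos, 75.1 and 68.6 CPM in 8-cell controls and 27.3 and 39.4 CPM in edited 8-cell embryos. Only the edited 8-cell embryos were low. The log2 fold changes were -0.03 (SE 0.249, limma adjusted p-value 0.937) and -1.11 (SE 0.249, limma adjusted p-value 0.00496), the latter call being lost without 8-cell edited replicate 1 (0.115, range 0.00225 to 0.115). EIF3A, EIF3B, EIF3H and EIF3M were called at neither stage.

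**Figure D3:**
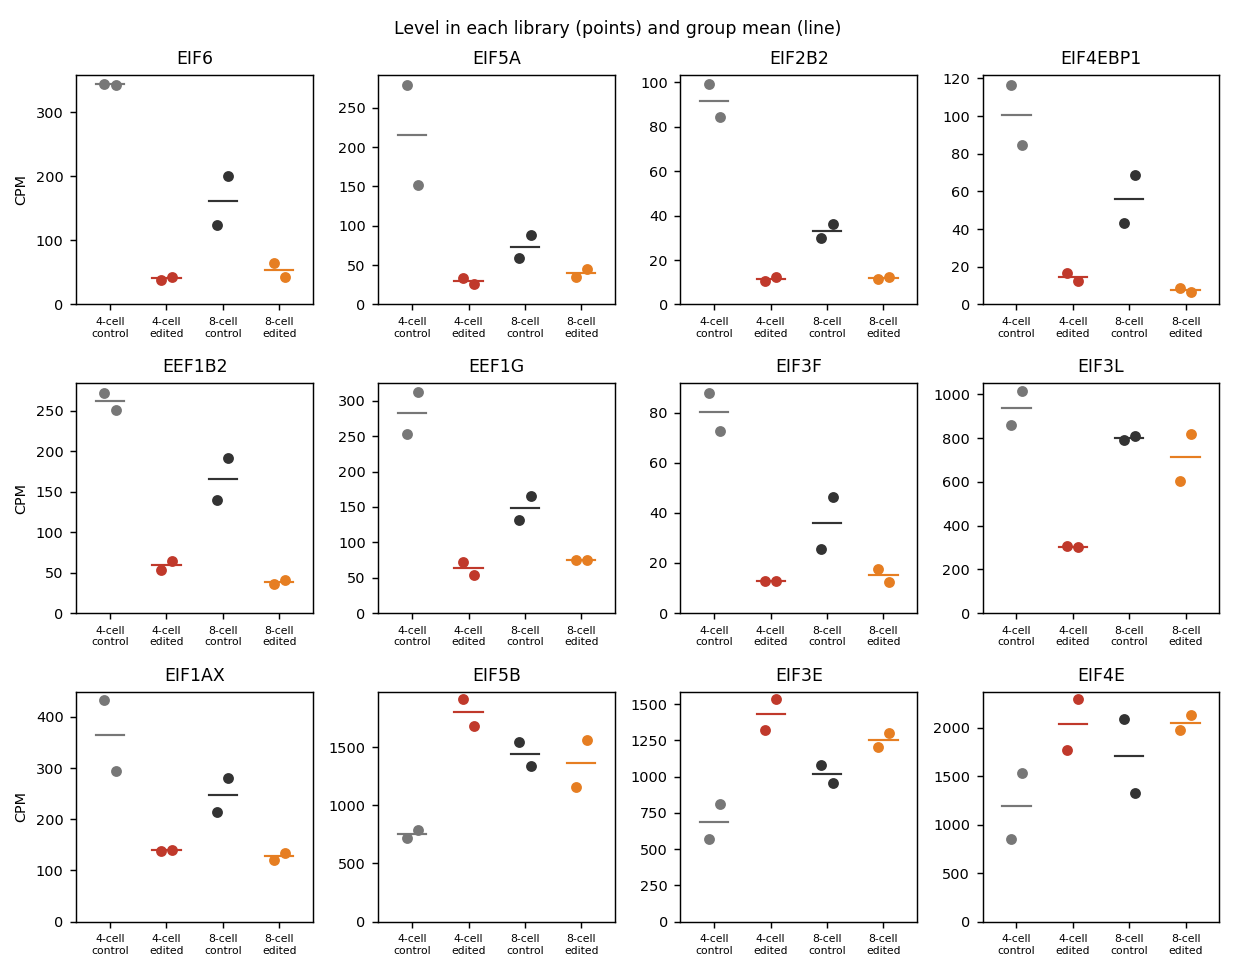
Level in CPM (vertical axes, from 0) of 12 members in each library (points, 2 a group) with the group mean (line). The first 9 genes are lower in edited than in control 4-cell embryos, and EIF5B, EIF3E and EIF4E are higher.

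Cap binding and unwinding showed no common direction. Of 12 genes 2 rose and 2 fell at the 4-cell stage, with a median of 0.01, and none passed at the 8-cell stage by limma, edgeR or DESeq2, where 1 gene (EIF4G3) had an unadjusted limma p-value under 0.05. EIF4E, the cap-binding protein, was at 852 and 1529 CPM in 4-cell controls and 1769.6 and 2301 CPM in edited 4-cell embryos, and at 2087 and 1323 CPM in 8-cell controls and 1974 and 2128 CPM in edited 8-cell embryos. The 4-cell groups were apart and the 8-cell groups overlapped. Its log2 fold change was 0.82 (SE 0.282, limma adjusted p-value 0.0264) at the 4-cell and 0.30 (SE 0.282, limma adjusted p-value 0.536) at the 8-cell stage. The 4-cell call was lost without control replicate 1 (0.40, limma adjusted p-value 0.31), without edited replicate 1 or 2 (0.054 and 0.195), without a filter on low values and in edgeR (0.0502), over a range of 0.00174 to 0.31.

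EIF4A3, the helicase of the exon junction complex, was at 385 and 384 CPM in 4-cell controls and 158 and 159 CPM in edited 4-cell embryos. It was at 306 and 305 CPM in 8-cell controls and 262 and 298 CPM in edited 8-cell embryos. Editing gave -1.27 on the log2 scale (SE 0.2, limma adjusted p-value 0.000116) at the 4-cell stage and -0.13 (SE 0.2, limma adjusted p-value 0.729) at the 8-cell stage. EIF4E2, a cap-binding protein that does not recruit EIF4G, was at 105 and 99.4 CPM in 4-cell controls and 63.4 and 52.3 CPM in edited ones, which is -0.81 on the log2 scale (SE 0.226, limma adjusted p-value 0.00815), a call lost without 4-cell edited replicate 2 (0.0532, range 0.00426 to 0.0532). EIF4E3, a divergent relative, was called higher at the 4-cell stage at a low level of 2.86 to 10.4 CPM, and that call was lost without either 4-cell control or without 4-cell edited replicate 2 (up to 0.113, range 0.00865 to 0.113).

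PABPC1, which binds the poly(A) tail and EIF4G, was at 132 and 261 CPM in 4-cell controls, 104 and 148 CPM in edited 4-cell embryos, 207 and 189 CPM in 8-cell controls and 155 and 131 CPM in edited 8-cell embryos. The 4-cell groups overlapped and the 8-cell groups did not, and the log2 fold changes of -0.58 (SE 0.287, limma adjusted p-value 0.116) and -0.47 (SE 0.287, limma adjusted p-value 0.317) did not pass. Without 4-cell control replicate 1 the 4-cell value was -1.07 and passed (limma adjusted p-value 0.00486). EIF4G1, the scaffold of EIF4F, was low throughout, at 9.04 and 6.45 CPM in 4-cell controls, 12.2 and 4.91 CPM in edited 4-cell embryos, 6.41 and 6.12 CPM in 8-cell controls and 6.84 and 8.39 CPM in edited 8-cell embryos. It was called at neither stage, with log2 fold changes of 0.03 (SE 0.407, limma adjusted p-value 0.961) and 0.24 (SE 0.407, limma adjusted p-value 0.751). EIF4A1, EIF4A2, EIF4B, EIF4G2, EIF4G3 and EIF4H were called at neither stage either.

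Of the 3 small proteins that block EIF4E, EIF4EBP1 fell at both stages and the other 2 were not called. EIF4EBP1 stood at 117 and 84.8 CPM in 4-cell controls and 16.5 and 12.6 CPM in edited 4-cell embryos, and at 43.3 and 68.7 CPM in 8-cell controls and 8.64 and 6.50 CPM in edited 8-cell embryos. Each edited library was far below each control. On the log2 scale the change was -2.70 (SE 0.312, limma adjusted p-value 7.44e-06) at the 4-cell stage and -2.71 (SE 0.312, limma adjusted p-value 2.26e-05) at the 8-cell stage. The difference between these effects was -0.01 (SE 0.441, limma adjusted p-value 0.996). EIF4EBP2 ranged from 1.62 to 5.84 CPM and EIF4EBP3 from 12.6 to 35.4 CPM.

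EIF6, which keeps the large subunit from joining too soon and takes part in its assembly, was the member with the lowest log2 fold change at the 4-cell stage. It stood at 344 and 343 CPM in 4-cell controls and 38.2 and 43.5 CPM in edited 4-cell embryos, and at 123 and 200.1 CPM in 8-cell controls and 64.9 and 42.4 CPM in edited 8-cell embryos. Edited libraries were below controls at each stage. The log2 fold change was -3.05 (SE 0.27, limma adjusted p-value 1.16e-06) at the 4-cell and -1.57 (SE 0.27, limma adjusted p-value 0.000588) at the 8-cell stage, and none of the 8 libraries left out in turn ended either call.

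EIF5A, the hypusine-bearing factor that helps the ribosome through difficult peptide bonds, was at 279.6 and 152 CPM in 4-cell controls and 33.9 and 25.6 CPM in edited 4-cell embryos. At the 8-cell stage it was at 58.6 and 88.4 CPM in controls and 34.5 and 45.6 CPM in edited embryos. The groups were apart at both stages, with log2 fold changes of -2.77 (SE 0.309, limma adjusted p-value 5.48e-06) and -0.84 (SE 0.309, limma adjusted p-value 0.0818), the latter not passing. Its relative EIF5A2 ranged from 1.56 to 6.19 CPM and was called at neither stage. The 3 genes together summed to 625 and 500.2 CPM in 4-cell controls and to 78.2 and 74.0 CPM in edited 4-cell embryos.

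Elongation factors were lower in edited embryos at both stages where they were called. Of 5 tested, 3 fell at the 4-cell stage and 2 at the 8-cell stage, and none rose. EEF1B2, which recharges EEF1A with GTP, was at 273 and 251 CPM in 4-cell controls and 53.2 and 64.6 CPM in edited 4-cell embryos, and at 139 and 191 CPM in 8-cell controls and 35.8 and 41.3 CPM in edited 8-cell embryos. The edited libraries of both stages were below each control library. Its log2 fold changes were -2.14 (SE 0.238, limma adjusted p-value 5.17e-06) and -2.06 (SE 0.238, limma adjusted p-value 2.29e-05).

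EEF1G, the subunit that anchors this exchange complex, was at 253 and 312 CPM in 4-cell controls and 71.9 and 54.5 CPM in edited 4-cell embryos, and at 132 and 166 CPM in 8-cell controls and 75.7 and 74.8 CPM in edited 8-cell embryos. It too was lower in each edited library. Its log2 fold changes were -2.15 (SE 0.235, limma adjusted p-value 4.62e-06) and -0.97 (SE 0.235, limma adjusted p-value 0.00855). The 8-cell call was lost without control replicate 2, edited replicate 1 or edited replicate 2 (limma adjusted p-values 0.124, 0.0632 and 0.0682, range 0.002 to 0.124).

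EEF1A1, the carrier of aminoacyl-tRNA, was at 356 and 546 CPM in 4-cell controls, 307 and 325 CPM in edited 4-cell embryos, 332 and 367 CPM in 8-cell controls and 292 and 245 CPM in edited 8-cell embryos. Edited libraries were lower at each stage, but the log2 fold changes of -0.48 (SE 0.23, limma adjusted p-value 0.102) and -0.38 (SE 0.23, limma adjusted p-value 0.313) did not pass. Without 4-cell control replicate 1 the 4-cell value was -0.79 and passed (limma adjusted p-value 0.015). EEF1A1 has many processed copies, so its reads are uncertain. EEF2, the translocase, was at 40.2 and 27.0 CPM in 4-cell controls and 16.4 and 9.86 CPM in edited 4-cell embryos, and at 19.5 and 24.4 CPM in 8-cell controls and 13.8 and 17.1 CPM in edited 8-cell embryos. Its log2 fold change was -1.31 (SE 0.333, limma adjusted p-value 0.00467) at the 4-cell stage, a call lost without 4-cell control replicate 1 or edited replicate 2 (0.0623 and 0.0563, range 0.000607 to 0.0623), and -0.48 (SE 0.333, limma adjusted p-value 0.395) at the 8-cell stage. EEF1E1, a scaffold of the tRNA synthetase complex, was called at neither stage.

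Enzymes that modify the elongation factors fell at the 4-cell stage in 3 of 5 cases and at the 8-cell stage in none by limma, edgeR or DESeq2 or at an unadjusted limma p-value under 0.05. EEF2KMT, a lysine methyltransferase of EEF2, was at 20.7 and 22.6 CPM in 4-cell controls and 7.98 and 4.88 CPM in edited 4-cell embryos, then at 15.0 and 20.9 CPM in 8-cell controls and 21.2 and 17.1 CPM in edited 8-cell embryos. The edited 4-cell libraries alone were low, at -1.64 on the log2 scale against controls (SE 0.335, limma adjusted p-value 0.000967). EEF1AKMT1, which methylates EEF1A, was at 43.2 and 37.2 CPM in 4-cell controls and 12.7 and 13.8 CPM in edited ones, which is -1.53 on the log2 scale (SE 0.301, limma adjusted p-value 0.000718). EEF1AKMT2 was at 66.7 and 51.8 CPM against 23.5 and 46.7 CPM, which is -0.81 on the log2 scale (SE 0.311, limma adjusted p-value 0.0449), a call lost without replicate 1 of any of the 4 groups or without 8-cell edited replicate 2 (up to 0.43). It was also lost in edgeR (0.21), in DESeq2 (0.13), with TMM (0.105) or median-of-ratios factors (0.0716), without a filter (0.0918), with the replicate block (0.0518) and with only the compared libraries fitted (0.0514), which makes 12 of 18 alternatives but the marker term (range 0.00827 to 0.43). EEF2K, the kinase that switches EEF2 off, ranged from 4.09 to 11.95 CPM and was not called.

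The 2 release factors differed. ETF1, which reads the stop codon, was at 64.5 and 67.6 CPM in 4-cell controls and 20.3 and 35.1 CPM in edited 4-cell embryos, and at 38.2 and 42.6 CPM in 8-cell controls and 18.7 and 18.5 CPM in edited 8-cell embryos. Edited libraries were below controls at each stage, with log2 fold changes of -1.27 (SE 0.289, limma adjusted p-value 0.00206) and -1.08 (SE 0.289, limma adjusted p-value 0.0163). The 8-cell call was lost without control replicate 2, edited replicate 1 or edited replicate 2 (limma adjusted p-values 0.124, 0.088 and 0.0934, range 0.00897 to 0.124). GSPT1, its GTPase partner, was not called and ranged from 159 to 452 CPM.

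**Figure D4:**
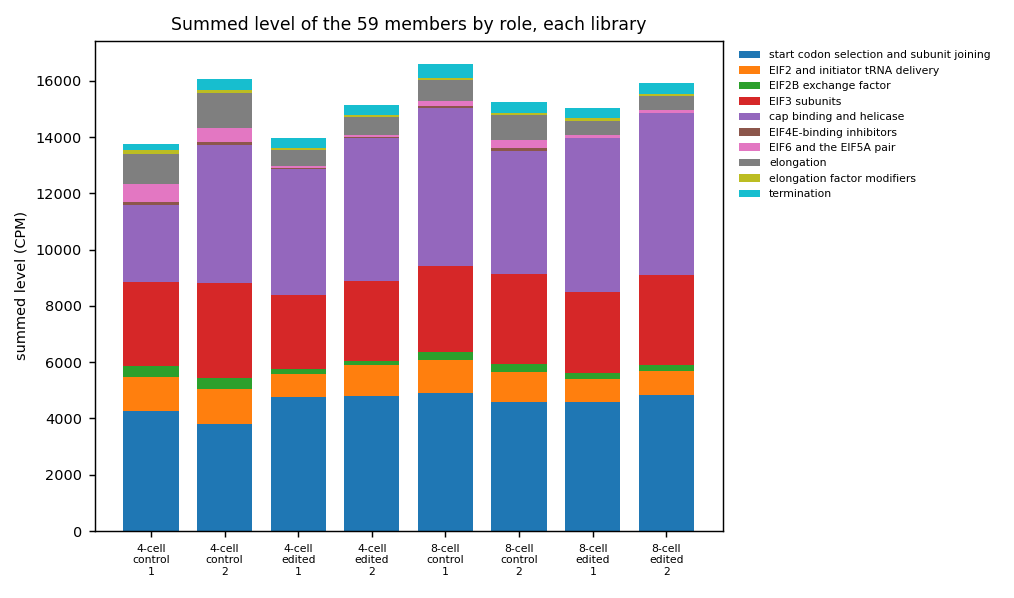
Summed level in CPM (vertical axis) of the 59 members in each library, stacked by role. The totals run from 13760 to 16600 CPM, while the band of EIF6 and the EIF5A pair goes from 625 and 500.2 CPM in 4-cell controls to 78.2 and 74.0 CPM in edited 4-cell embryos.

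Between the stages, controls showed fewer called members. In 8-cell against 4-cell controls 1 member rose, against 2.75% of all genes, and 5 fell, against 6.27%. The 1 that rose was EIF5B, by 0.93 (SE 0.217, limma adjusted p-value 0.0212). Those that fell were EIF5A, by 1.51 (SE 0.309, limma adjusted p-value 0.0147), EIF2B2, by 1.45 (SE 0.28, limma adjusted p-value 0.0126), EIF3F, by 1.19 (SE 0.318, limma adjusted p-value 0.0338), EIF6, by 1.12 (SE 0.27, limma adjusted p-value 0.0244), and EEF1G, by 0.92 (SE 0.235, limma adjusted p-value 0.0301). All 6 calls were lost without 4-cell control replicate 1, and all 6 without 8-cell control replicate 1, and the highest limma adjusted p-value on leaving out a library was between 0.156 and 0.358. The 4-cell controls used here are those of the 4-cell editing comparison, so these values are not independent of it.

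In 8-cell against 4-cell edited embryos 3 members rose, against 1.45% of all genes, and 1 fell, against 3.73%. EEF2KMT rose by 1.46 (SE 0.335, limma adjusted p-value 0.0226), EIF3L by 1.21 (SE 0.213, limma adjusted p-value 0.00751) and EIF4A3 by 0.81 (SE 0.2, limma adjusted p-value 0.0314). EIF3J fell by 1.27 (SE 0.249, limma adjusted p-value 0.0108). All 4 calls were lost without 4-cell edited replicate 2, at limma adjusted p-values of up to 0.245 over the libraries left out.

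The editing effect itself, as the 8-cell minus the 4-cell log2 fold change, differed between stages for 7 members. It was above 0 in 6, against 1.95% of all genes, and below 0 in 1, against 2%. The 6 were EIF5A, EIF1AD, EIF2B2, EIF6, EIF3L and EIF4A3, each of which was lower in edited than in control embryos at the 4-cell stage. At the 8-cell stage 5 of them had smaller negative values and EIF1AD stood at 0.02. The 1 below 0 was EIF5B. In edgeR 0 members were called (15 above and 5 below 0 at an unadjusted p-value under 0.05). Of all 14629 genes edgeR tested, 18 were called (1162 above and 1750 below 0 unadjusted). DESeq2 called 12 members above and 1 below 0, against 1035 of 16606 genes (6.23%) in either direction. For the other 24 of the 31 members called at a stage, a difference between the stages was not shown.

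**Figure D5:**
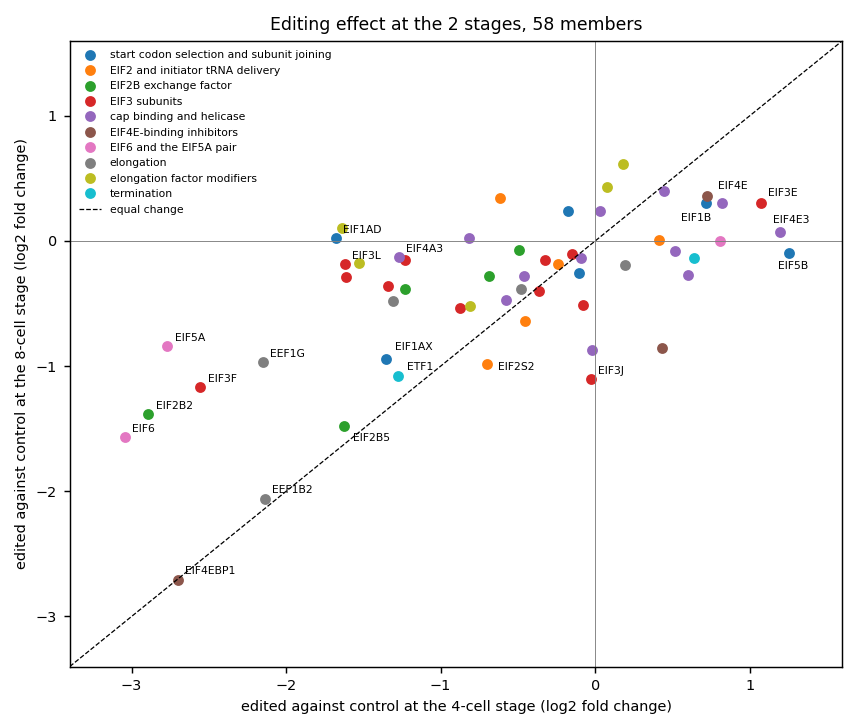
Log2 fold change of edited against control at the 4-cell stage (horizontal axis) and at the 8-cell stage (vertical axis) for the 58 tested members, coloured by role, with a dashed line of equal change. EIF4EBP1 (-2.70 and -2.71) and EEF1B2 (-2.14 and -2.06) lie by the line, and EIF6 (-3.05 and -1.57) and EIF5A (-2.77 and -0.84) lie above it.

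Members known in mammals to have mRNAs with a terminal oligopyrimidine tract were compared with the remaining members. Through this sequence at the start of the mRNA, growth signals control translation. The list held EEF1A1, EEF1B2, EEF1D, EEF1G, EEF2, EIF3E, EIF3F, EIF3H, EIF4B and PABPC1. No bovine transcript start was examined, for these members or for the others. Of 9 such members tested, 1 was called higher and 4 lower in edited 4-cell embryos, with a median of -0.58, and 0 higher and 3 lower in edited 8-cell embryos, with a median of -0.47. Of the 49 others, 4 were called higher and 21 lower, with a median of -0.45, and then 0 higher and 8 lower, with a median of -0.19. Over all genes, 18.9% were called higher and 25.8% lower at the 4-cell stage, and 1.08% and 14.5% at the 8-cell stage. The difference between the lists was not tested.

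Of 34 other genes of the pathway that were tested, 5 rose and 6 fell in edited 4-cell embryos, with a median of -0.10. At the 8-cell stage 1 rose and 6 fell, with a median of -0.12. Beside these counts, 18.9% of all genes rose and 25.8% fell at the 4-cell stage, and 1.08% and 14.5% at the 8-cell stage. RACK1, a scaffold on the small subunit, was at 950.9 and 1063 CPM in 4-cell controls and 118 and 171 CPM in edited ones, and at 486 and 624 CPM in 8-cell controls and 77.5 and 53.2 CPM in edited ones. Its log2 fold changes were -2.82 (SE 0.249, limma adjusted p-value 1.16e-06) and -3.08 (SE 0.249, limma adjusted p-value 2.40e-06). DENR, which with MCTS1 recycles small subunits and allows reinitiation, was at 109 and 82.1 CPM against 21.2 and 31.3 CPM at the 4-cell stage and 45.3 and 58.5 CPM against 7.65 and 7.58 CPM at the 8-cell stage. Its log2 fold changes were -1.83 (SE 0.29, limma adjusted p-value 0.000121) and -2.61 (SE 0.29, limma adjusted p-value 1.75e-05). EIF2AK2, the EIF2 kinase activated by double-stranded RNA, was at 72.9 and 52.1 CPM against 8.94 and 12.6 CPM and then at 23.7 and 24.7 CPM against 2.03 and 3.36 CPM. Both were falls, at -2.43 (SE 0.335, limma adjusted p-value 3.63e-05) and -2.79 (SE 0.335, limma adjusted p-value 2.89e-05).

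PAIP1, which links the poly(A)-binding protein to initiation, rose at the 4-cell stage from 2768 and 5898 CPM to 10130 and 15670 CPM, by 1.64 (SE 0.33, limma adjusted p-value 0.000858), and stood at 9994 and 6642 CPM in 8-cell controls and 14860 and 15010 CPM in edited 8-cell embryos (0.87, limma adjusted p-value 0.0919). EIF4E1B, an oocyte form of EIF4E, was the 1 pathway gene that rose at both stages. It was at 211 and 191 CPM against 332 and 279.6 CPM and then at 226 and 319 CPM against 521 and 539 CPM, with log2 fold changes of 0.60 (SE 0.221, limma adjusted p-value 0.0361) and 0.98 (SE 0.221, limma adjusted p-value 0.0051). Its 4-cell call was lost without 4-cell control replicate 2 or any 1 of the 4 edited libraries, without a filter, with the replicate block and with only the compared libraries fitted (range 0.0167 to 0.186 over all alternatives but the marker term), and its 8-cell call without 8-cell control replicate 1 or edited replicate 2 (range 0.000567 to 0.0826). These pathway genes were named after their values were seen.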

How the data were processed

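From each pool of embryos mRNA was captured, amplified with a Smart-seq2 kit and made into Nextera XT libraries, per the labels' protocols. Reads were handled with Trim Galore 0.6.7, HISAT2 2.2.1 and featureCounts 2.0.1, per the submitters' processing notes; genome build and annotation are not given in the sources used here. The values the authors deposited are CPM by gene symbol, whatever the table is called. In each library 100% of positive values were whole multiples of 1 read within 0.05 reads, so reads could be recovered. Library totals gave 0.0286 to 0.0300 CPM a read. Of 12 columns, 4 match no sample and were not used.

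All 8 libraries entered 1 fit of log2(CPM + 1) in limma 3.58.1 under R 4.3.3, trended by intensity and limited to genes whose mean reached 1 CPM, and p-values were adjusted over all genes tested. On the recovered reads, edgeR 4.0.16 called 2478 genes higher and 2694 lower in edited 4-cell embryos; DESeq2 1.42.0 was a further alternative. The limma script was tested on simulated data. Replicates were separate libraries by their counts (chi-square per degree of freedom 46.1 to 143.8) with Pearson r of 0.971 to 0.978 across genes.

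Values per library were given for 8 fixed members and, in each role, for up to 4 called members with the smallest p in each editing comparison and up to 2 in each other, among those with groups that do not overlap and a mean of at least 10 CPM; exceptions are named. The members, lists and rule were chosen with earlier results of these data known. CPM was not adjusted for gene length, so a low level of a gene refers to its reads and does not rank genes by transcript number.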

Additional observations from a re-analysis of the deposited data

Results flagged for a closer look

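For 7 members the effect of editing differed between the 2 stages in limma's interaction term, given as the 8-cell minus the 4-cell log2 fold change with its standard error and adjusted p-value. EIF5A differed by 1.93 (SE 0.437, adjusted p-value 0.0324), EIF1AD by 1.70 (SE 0.386, adjusted p-value 0.0324), EIF2B2 by 1.51 (SE 0.396, adjusted p-value 0.0446) and EIF6 by 1.48 (SE 0.382, adjusted p-value 0.0424). EIF3L differed by 1.43 (SE 0.301, adjusted p-value 0.026) and EIF4A3 by 1.14 (SE 0.283, adjusted p-value 0.0391). EIF5B was the member below 0, at -1.35 (SE 0.306, adjusted p-value 0.0324).

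Over the libraries left out in turn, each of the 7 was lost in at least 5 and at most 7 of 8 cases, with limma adjusted p-values of up to 0.112 for EIF3L and up to 0.207 for EIF6. With the cumulus and granulosa marker term the 7 differences had the same sign, from 1.12 for EIF6 to 1.86 for EIF5A among the positive ones and -1.19 for EIF5B, with limma adjusted p-values of 0.0684 to 0.136. The 4-cell controls, which enter each of these differences, had the highest marker sums (2385 and 1937 CPM). The part of these marker levels in the differences was not tested further.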

How the results depend on the processing

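Among 1727 alternative values of single genes and medians, 4 took the opposite sign, each of EIF4G1, which was not called. At the 4-cell stage they were -0.92 with the marker term, -0.19 without 4-cell control replicate 2 and -0.55 without 4-cell edited replicate 1 (-0.55 to 0.61 over the libraries left out), and at the 8-cell stage -0.48 with the marker term. Most of the values are of genes already called, and many alternatives cannot move a limma estimate of an editing effect. Leaving out a library of the other stage, the replicate block and fitting only the compared libraries change its error alone. The count of signs is therefore no measure of stability. Of the members called at the 4-cell stage, 20 of 30 passed in every alternative but the marker term, and of those called at the 8-cell stage 5 of 11 did.

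With the marker term, counts of members called fell to 0 higher and 0 lower at the 4-cell stage, 0 lower at the 8-cell stage, 0 and 0 between control stages and 0 and 0 for the difference of effects (15 higher and 5 lower at an unadjusted p-value under 0.05). The members' medians with it were -0.47 and -0.24 at the 4-cell and 8-cell stage, against -0.47 and -0.23 without it, and their median standard errors 0.708 and 0.568 against 0.27 and 0.27. Over the members called without the term, the median size went from 1.33 to 1.07 at the 4-cell stage. At the 8-cell stage it went from 1.17 to 0.93. Without a filter on low values limma called 0 and 0 between control stages (unadjusted 4 and 15), 0 and 0 between edited stages (9 and 7) and 0 and 0 for the difference (15 and 3), with 0 genes in all called for the first and the last. edgeR called 0 higher and 1 lower between control stages and 0 and 0 for the difference, against 86 and 18 of all 14629 genes. DESeq2 called 2 lower between edited stages and 12 above 0 for the difference, against 971 and 544 of all 16606 genes. Fitted on the compared libraries alone, 0 rose and 1 fell between control stages, and 5 rose and 2 fell between edited stages. With median-of-ratios factors 0 lay below 0 for the difference.

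Leaving out each library in turn, which assumes that a lone library varies like the others, gave 2 to 10 higher and 21 to 25 lower at the 4-cell stage, 0 to 0 higher and 6 to 14 lower at the 8-cell stage, 0 to 8 higher and 0 to 5 lower between control stages, 0 to 5 higher and 0 to 2 lower between edited stages, and 0 to 7 and 0 to 5 for the difference. The 4-cell count of higher members was 3 without control replicate 1, 10 without control replicate 2 and 2 without edited replicate 2. The 8-cell count of lower members was 6 without control replicate 2, 7 without edited replicate 1 and 6 without edited replicate 2.

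Same-numbered libraries correlated in their deviations from group means at 0.108 and -0.086 in the 4-cell and 8-cell editing comparisons and at -0.302 between control stages, and with 2 pairs they share only a number. A replicate block gave 5 higher and 24 lower at the 4-cell stage, 0 and 11 at the 8-cell stage, 1 and 5 between control stages, 2 and 1 between edited stages and 4 and 1 for the difference. With the 8-cell control numbers crossed, an alternative chosen after seeing the data, 2 rose and 6 fell between control stages. EEF1D, at most 0.348 CPM, lies near the depth limit of 3 reads (0.0858 to 0.0899 CPM).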

Other observations

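The 2 libraries of 4-cell controls were unlike each other for several members. EIF4A1, the helicase of EIF4F, was at 502 CPM in replicate 1 and 1527 CPM in replicate 2, whereas the other 6 libraries lay between 1125 and 2153 CPM. EIF4G2, a relative of EIF4G1 that does not bind EIF4E, was at 231 and 457 CPM there, EIF2A at 81.6 and 195 CPM and GSPT1 at 159 and 296 CPM. Replicate 1 held the lowest value of all 8 libraries for each of these 4 genes. It also held the lowest sum of the 12 oocyte markers (19570 CPM, against 26010 CPM in replicate 2) and the highest sum of cumulus and granulosa markers. These genes were picked after their values were seen, and no cause was tested.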
